A study of Mus musculus with 22 samples.

Results

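FGF-ERK signalling and its feedback were followed in mouse preimplantation embryos through 10 genes, selected by their symbols from the 55335 genes of an FPKM table. They were the ligand gene Fgf4, the receptor genes Fgfr1 and Fgfr2, the adaptor gene Grb2, the ETS factor genes Etv4 and Etv5, and the feedback inhibitor genes Spry2, Spry4, Dusp4 and Dusp6. RNA-seq by Smart-seq2, a full-length method for small amounts of poly(A) RNA, was performed on 22 libraries of 15 embryos each. It compared embryos with knockdown (KD) of the histone variant H2A.Z with control embryos. The embryos came from B6D2F1 females mated with B6D2F1 males. Control embryos gave 4 libraries each at the 2-cell stage (43 to 44 h post hCG), the morula stage (78 h) and the blastocyst stage (94 h). KD embryos, injected as zygotes with siRNA (20 µM, about 10 pL per zygote), gave 3 libraries of 2-cell embryos, 3 of morulae and 4 of blastocysts at the same times. The paper reports that far fewer KD than control embryos formed blastocysts, with no effect on reaching the morula stage. Whether KD and control blastocysts were alike in developmental progress was not tested. What the control embryos of these libraries received is not stated in the sources used here. The paper states that its experiments, apart from the chromatin profiling, were repeated at least 3 times, without tying single libraries to these repeats. Replicates are not said to come from separate animals or cultures, so p-values measure the spread between these libraries, which may be technical.

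FGF ligands bind FGF receptors together with heparan sulphate, and the active receptor recruits GRB2 and the exchange factor SOS to switch on RAS. RAS acts through the kinases RAF, MEK and ERK on transcription factors, including those of the ETS family, and active ERK in turn raises the transcription of inhibitors, the Sprouty proteins and the dual specificity phosphatases (DUSPs), which dampen the pathway. In the mouse blastocyst, FGF4 from epiblast precursors signals to FGFR1 and FGFR2 and promotes primitive endoderm, while FGFR2 is also found in trophectoderm.

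FPKM values are normalised to transcript length and library size, so levels of different genes are compared per length. The number of reads behind a value is unknown. A relative depth, taken as the inverse of the smallest step between low values of single-exon genes and given in relative units, ranged from 14.9 in Blastocyst control 4 to 28.8 in Morula control 8. At the length of the longest Fgf4 transcript, 3030 bases, 1 step corresponds to between 0.0115 and 0.0221 FPKM, and an exact 0 is written as listed at 0.

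H2afz, which encodes H2A.Z, was listed at 1244, 1236, 905 and 1178 FPKM in 2-cell control libraries 1, 2, 4 and 5 and at 415, 139 and 112 FPKM in KD libraries 1, 2 and 4. In morulae it was at 1158, 1336, 1511 and 1421 FPKM in control libraries 1, 2, 7 and 8 and at 30.3, 25.7 and 29.0 FPKM in KD libraries 1, 2 and 6. In blastocysts, control libraries 1, 4, 5 and 6 had 2656, 2431, 1945 and 2055 FPKM and the KD libraries of the same numbers 64.2, 67.2, 53.2 and 57.6 FPKM. All KD libraries were below all control libraries of their stage, with the highest KD level at the 2-cell stage. The log2 fold changes, taken on log2(FPKM + 1) here and throughout, were -2.53 at the 2-cell stage (SE 0.38, adjusted p = 0.544 over all genes, unadjusted limma p 4.48e-05), -5.41 in morulae (SE 0.17, adjusted p = 9.72e-08) and -5.19 in blastocysts (SE 0.20, adjusted p = 3.63e-08). H2afv, which encodes a closely related variant, had log2 fold changes of -0.23, -2.94 and -1.86 at these stages, with adjusted p = 0.839, 2.92e-06 and 7.98e-05.

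Several libraries stood apart over the 10 genes. Morula control 1 was the highest of its group for Fgf4, Fgfr1, Fgfr2, Grb2, Etv5, Dusp4 and Dusp6 and the lowest for Spry2. It had 11174 genes at 1 FPKM or more, against 10406 to 10579 in the other morula control libraries. Blastocyst KD 5 was the highest of its group for Fgfr1, Fgfr2, Etv5, Spry4, Dusp4 and Dusp6, with 11495 genes at 1 FPKM or more against 10792 to 11048. Base composition moved with both. Relative to the mean of the other libraries of the group, genes of the top GC quartile were compared with those of the bottom quartile. The top quartile lay 0.262 (log2) higher in Morula control 1 and 0.197 higher in Blastocyst KD 5. The other libraries of these groups had at most 0.054 and 0. Blastocyst control 5, the highest of its group for Dusp6, Fgfr1 and Fgfr2, had 0.220 for GC content and 0.241 for transcript length, and Blastocyst control 1 went the other way, at -0.351 and -0.413. For transcript length Morula control 1 had 0.172, Blastocyst KD 5 0.308 and Blastocyst KD 4 -0.343. Mitochondrial genes held 13.3% to 14.6% of FPKM in control and 15.7% to 18.3% in KD morulae, and 15.2% to 20.0% in control and 13.0% to 15.3% in KD blastocysts, so that the share was higher in all KD morulae and, in blastocysts, lower in KD on average with an overlap. The part of base composition and of the mitochondrial share in the results, that of Dusp6 included, was not tested, and values with and without these libraries are given where a result rests on them.

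**Figure D1:**
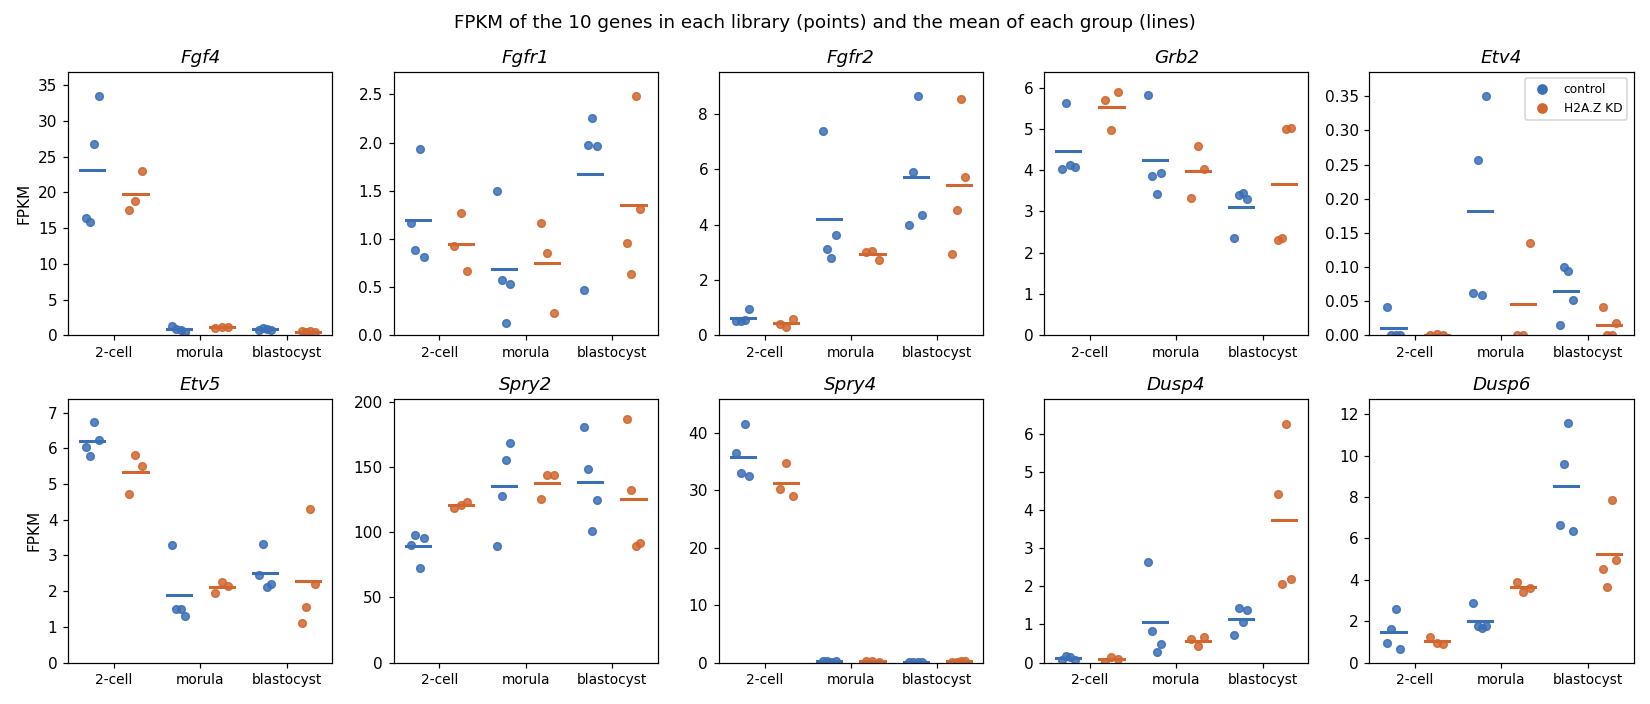
FPKM of the 10 genes (y axes, each with its own scale from 0) in every library (points) by stage and treatment (x axes), with lines at the group means. Spry2 lies at 72.6 to 187 FPKM throughout, and Fgf4 and Spry4 are high in 2-cell embryos. Dusp4 is higher in KD blastocysts than in all control blastocysts, and Dusp6 is higher in KD morulae than in all control morulae.

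Fgf4 (ENSMUSG00000050917.5, chr7:144847367-144865243 on the forward strand of GRCm38, to which all positions refer) encodes the FGF ligand of early embryos. In 2-cell embryos, Fgf4 stood at 16.4, 15.8, 26.8 and 33.4 FPKM in control libraries 1, 2, 4 and 5 and at 17.5, 18.7 and 22.9 FPKM in KD libraries 1, 2 and 4. In morulae, the levels were 1.30, 0.868, 0.690 and 0.401 FPKM in control libraries 1, 2, 7 and 8 and 0.955, 1.18 and 1.18 FPKM in KD libraries 1, 2 and 6. In blastocysts, they were 0.711, 1.01, 0.848 and 0.710 FPKM in control libraries 1, 4, 5 and 6 and 0.554, 0.496, 0.554 and 0.459 FPKM in the KD libraries of the same numbers. Control and KD values overlapped at the first 2 stages, and in blastocysts all KD libraries were lower, at levels below 1 FPKM. Between control 2-cell embryos and morulae, Fgf4 fell by 3.70 on the log2 scale (SE 0.22, adjusted p = 1.99e-08), and the change was -3.75 without Morula control 1 (adjusted p = 1.93e-07). KD changed it by -0.094 in 2-cell embryos (SE 0.25, adjusted p = 0.961; from -0.23 to 0.095 with single libraries left out) and by 0.31 in morulae (SE 0.17, adjusted p = 0.257). In blastocysts it did not reach the filter of 1 FPKM in 3 libraries. There the difference was -0.26 (2-sided exact permutation p = 0.0286, the smallest that 4 against 4 libraries can give, and 0.286 after adjustment over 30 such tests), and a fit without the filter gave adjusted p = 0.153. The KD effect in blastocysts minus that in morulae was -0.58 (SE 0.20, adjusted p = 0.0649). It was -0.67 without Morula control 1 (adjusted p = 0.0354) and -1.20 with a pseudocount of 0.1 (adjusted p = 0.0710), and adjusted p ranged from 0.0354 to 0.394 over the alternatives. In embryos, which hold several cell types, fewer cells of a type and less RNA per cell cannot be told apart, here and for the other genes.

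Fgfr1 (ENSMUSG00000031565.18, chr8:25513654-25575718, forward strand), a receptor tyrosine kinase gene that overlaps the antisense gene Gm16159, was low throughout. Its levels were 1.16, 0.889, 1.93 and 0.809 FPKM in 2-cell control libraries 1, 2, 4 and 5 and 0.923, 1.27 and 0.663 FPKM in KD libraries 1, 2 and 4. Morula control libraries 1, 2, 7 and 8 had 1.50, 0.578, 0.131 and 0.537 FPKM, and KD libraries 1, 2 and 6 had 1.17, 0.855 and 0.227 FPKM. In blastocysts, control libraries 1, 4, 5 and 6 were at 0.475, 1.98, 2.26 and 1.97 FPKM, and KD libraries at 0.963, 0.631, 2.49 and 1.31 FPKM. Control and KD libraries overlapped at each stage, with Blastocyst control 1 well below the other control blastocysts. KD changed Fgfr1 by -0.12 in 2-cell embryos (SE 0.22, adjusted p = 0.936) and by -0.17 in blastocysts (SE 0.26, adjusted p = 0.642; from -0.42 without Blastocyst control 1, adjusted p = 0.176, to -0.029 without Blastocyst KD 4, adjusted p = 0.946), and it was below the filter in morulae. From control morulae to control blastocysts the change was 0.61 (SE 0.26, adjusted p = 0.0616), which became 0.79 without Morula control 1 (adjusted p = 0.0214) and 0.86 without Blastocyst control 1 (adjusted p = 0.00636). From control 2-cell embryos to morulae it was -0.43 (SE 0.21, adjusted p = 0.0773), and -0.53 without 2-cell control 5 (adjusted p = 0.0445), -0.24 without Morula control 7 (adjusted p = 0.275) and -0.13 with the replicate number as a block (adjusted p = 0.612). In that block only libraries 1 and 2 of each stage are matched.

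Fgfr2 (ENSMUSG00000030849.18, reverse strand) encodes the other receptor. Its gene model, chr7:130162451-133123350, overlaps 69 other annotated genes, so the assignment of reads to it is less certain than for the other genes. Levels were 0.525, 0.513, 0.544 and 0.967 FPKM in 2-cell control libraries 1, 2, 4 and 5 and 0.409, 0.305 and 0.578 FPKM in KD libraries 1, 2 and 4. In morulae, control libraries 1, 2, 7 and 8 had 7.38, 3.12, 2.78 and 3.61 FPKM and KD libraries 1, 2 and 6 had 3.02, 3.06 and 2.72 FPKM. Blastocyst control libraries 1, 4, 5 and 6 had 3.98, 5.90, 8.65 and 4.36 FPKM, and KD libraries had 2.92, 4.52, 8.56 and 5.74 FPKM. Every 2-cell library was below every later library, while control and KD overlapped at each stage. Between control 2-cell embryos and morulae Fgfr2 rose by 1.60 (SE 0.21, adjusted p = 1.41e-05), and by 1.41 without Morula control 1, whose level was 7.38 FPKM (adjusted p = 1.21e-05), and by 2.48 with a pseudocount of 0.1. The KD log2 fold change was -0.23 in morulae (SE 0.23, adjusted p = 0.515; -0.034 without Morula control 1) and -0.084 in blastocysts (SE 0.25, adjusted p = 0.825; from -0.25 without Blastocyst KD 5 to 0.11 without Blastocyst KD 1). The step from morula to blastocyst was 0.32 in control embryos (SE 0.25, adjusted p = 0.284; 0.52 without Morula control 1, adjusted p = 0.0648) and 0.48 in KD embryos (SE 0.24, adjusted p = 0.139), the latter 0.67 without Blastocyst KD 1 (adjusted p = 0.0319).

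Grb2 (ENSMUSG00000059923.13, chr11:115644045-115708597, reverse strand) encodes the adaptor that links receptors to SOS. Across the stages it stayed between 2.31 and 5.90 FPKM. In 2-cell embryos it was at 4.02, 5.62, 4.13 and 4.08 FPKM in control libraries 1, 2, 4 and 5 and at 5.70, 4.97 and 5.90 FPKM in KD libraries 1, 2 and 4. Morula control libraries 1, 2, 7 and 8 had 5.82, 3.85, 3.41 and 3.94 FPKM, and KD libraries 1, 2 and 6 had 3.32, 4.59 and 4.02 FPKM. In blastocysts it was at 2.35, 3.39, 3.44 and 3.29 FPKM in control libraries 1, 4, 5 and 6 and at 2.31, 2.35, 5.01 and 5.02 FPKM in KD libraries. Control and KD overlapped at every stage, and KD blastocysts fell into libraries 1 and 4, which were low, and libraries 5 and 6, which were high. KD changed Grb2 by 0.32 (SE 0.19, adjusted p = 0.828), 0.037 (SE 0.18, adjusted p = 0.907) and 0.13 (SE 0.21, adjusted p = 0.661) in 2-cell embryos, morulae and blastocysts. With single libraries left out these values ranged from 0.26 to 0.43, from -0.053 to 0.16 and from -0.0051 to 0.26. From control morulae to control blastocysts Grb2 fell by 0.41 (SE 0.16, adjusted p = 0.0418), although the deposited values of these groups overlap. That call was kept without Morula control 7 and lost without any 1 of the other 7 libraries: without Morula control 1, 2 and 8 adjusted p = 0.0985, 0.0601 and 0.0731, and without Blastocyst control 1, 4, 5 and 6 adjusted p = 0.0976, 0.0684, 0.0613 and 0.0738. On FPKM as deposited the change was -0.34 (adjusted p = 0.139).

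Etv4 (ENSMUSG00000017724.14, chr11:101769742-101785371, reverse strand), an ETS factor gene that responds to FGF in many tissues, was at most 0.350 FPKM in any library and was below the filter in each comparison. Without the filter its adjusted p was at least 0.0717. It was listed at 0 in 3 of 4 control and 2 of 3 KD libraries of 2-cell embryos, in 2 of 3 KD morulae and in 2 of 4 KD blastocysts. The highest levels were 0.257 and 0.350 FPKM in Morula control 2 and 8, and blastocyst control libraries had 0.0146 to 0.0996 FPKM. Etv5 (ENSMUSG00000013089.15, chr16:22381309-22439719, reverse strand), its close relative, was at 6.05, 5.79, 6.75 and 6.23 FPKM in 2-cell control libraries 1, 2, 4 and 5 and at 4.71, 5.82 and 5.51 FPKM in KD libraries 1, 2 and 4. In morulae, Etv5 was at 3.30, 1.50, 1.51 and 1.30 FPKM in control libraries 1, 2, 7 and 8 and at 1.95, 2.25 and 2.15 FPKM in KD libraries 1, 2 and 6. Blastocyst control libraries 1, 4, 5 and 6 had 2.44, 3.33, 2.11 and 2.21 FPKM, and KD libraries had 1.12, 1.56, 4.30 and 2.20 FPKM. Morula control 1 was above the KD morulae and the other control morulae below them, and in KD blastocysts library 5 was the highest and library 1 the lowest of both groups. Etv5 fell by 1.37 between control 2-cell embryos and morulae (SE 0.18, adjusted p = 1.55e-05), and by 1.50 without Morula control 1 (adjusted p = 4.72e-06). KD changed it by -0.13 (SE 0.16, adjusted p = 0.902), 0.24 (SE 0.20, adjusted p = 0.433) and -0.18 (SE 0.24, adjusted p = 0.594) at the 3 stages in order. The morula value was 0.40 without Morula control 1 (adjusted p = 0.0951), and the blastocyst value was -0.39 without Blastocyst KD 5 (adjusted p = 0.147) and -0.015 without Blastocyst KD 1 (adjusted p = 0.970). From control morulae to blastocysts the change was 0.26 (adjusted p = 0.269), and 0.42 without Morula control 1 (adjusted p = 0.0497). The KD effect in blastocysts minus that in morulae was -0.45 (SE 0.32, adjusted p = 0.399). It became -0.82 (adjusted p = 0.0450) with Morula control 1 and Blastocyst KD 5 left out together, an alternative chosen after seeing the data.

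Spry2 (ENSMUSG00000022114.5, chr14:105891947-105896819, reverse strand) encodes a Sprouty protein, an inhibitor of receptor tyrosine kinase signalling, and was per length the most abundant of the 10 genes in each group. Its mean lay above 92.8% to 96.2% of the genes with a mean of at least 1 FPKM in each of the 6 groups. In 2-cell embryos, Spry2 was at 90.4, 98.0, 72.6 and 95.9 FPKM in control libraries 1, 2, 4 and 5 and at 118, 121 and 124 FPKM in KD libraries 1, 2 and 4. In morulae, it was at 89.1, 128, 155 and 168 FPKM in control libraries 1, 2, 7 and 8 and at 125, 144 and 144 FPKM in KD libraries 1, 2 and 6. In blastocysts, control libraries 1, 4, 5 and 6 had 181, 149, 101 and 125 FPKM and KD libraries had 187, 133, 89.5 and 92.1 FPKM. All KD libraries were above all control libraries at the 2-cell stage, where the log2 fold change was 0.51 (SE 0.17, higher in 3 of 3 KD libraries, adjusted p = 0.828, exact permutation p = 0.0286, adjusted over 30 tests 0.286). Of all 12160 genes tested at that stage, 824 had groups that did not overlap. For Spry2 the groups overlapped in morulae (0.19, SE 0.25, adjusted p = 0.646) and in blastocysts (-0.17, SE 0.29, adjusted p = 0.688). Without Morula control 1 the morula value was -0.059, and the blastocyst value was 0.014 without Blastocyst control 1 and 0.022 without Blastocyst KD 5. Between control 2-cell embryos and morulae Spry2 changed by 0.56 (SE 0.25, adjusted p = 0.0590), and by 0.84 without Morula control 1 (adjusted p = 0.00203). It was 0.0020 with the replicate number as a block (adjusted p = 0.994), where only libraries 1 and 2 of each stage are matched. With a single library left out it was at least 0.40. This step passed the test on FPKM as deposited (0.56, adjusted p = 0.0210) and with upper quartile scaling (0.89, adjusted p = 0.00646), which moved the median of all genes from 0.097 to 0.35. From KD morulae to KD blastocysts it was -0.40 (SE 0.27, adjusted p = 0.275), and -0.63 without Blastocyst KD 1 (adjusted p = 0.0433).

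Spry4 (ENSMUSG00000024427.7, chr18:38586247-38601415, reverse strand), another Sprouty gene, was at 36.4, 33.0, 41.6 and 32.4 FPKM in 2-cell control libraries 1, 2, 4 and 5 and at 30.3, 34.7 and 29.0 FPKM in KD libraries 1, 2 and 4. In morulae the levels were 0.259, 0.193, 0.162 and 0.290 FPKM in control libraries 1, 2, 7 and 8 and 0.179, 0.305 and 0.129 FPKM in KD libraries 1, 2 and 6. Blastocyst control libraries 1, 4, 5 and 6 had 0.135, 0.150, 0.0690 and 0.0838 FPKM and KD libraries had 0.156, 0.147, 0.314 and 0.243 FPKM. The 2-cell libraries stood far above all others, and control and KD overlapped at each stage. Spry4 fell by 4.91 between control 2-cell embryos and morulae (SE 0.15, adjusted p = 9.30e-11), the largest change of the 10 genes in the comparisons tested. KD changed it by -0.12 in 2-cell embryos (SE 0.15, adjusted p = 0.895). In blastocysts, where it was below the filter, the difference was 0.13 (exact permutation p = 0.0571, adjusted over 30 tests 0.286).

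Dusp4 (ENSMUSG00000031530.6, chr8:34807297-34819894, forward strand) encodes a nuclear phosphatase that inactivates ERK. It stayed at or below 0.175 FPKM in all 2-cell libraries. In morulae, Dusp4 was at 2.63, 0.837, 0.278 and 0.487 FPKM in control libraries 1, 2, 7 and 8 and at 0.619, 0.433 and 0.679 FPKM in KD libraries 1, 2 and 6. In blastocysts, control libraries 1, 4, 5 and 6 had 0.731, 1.42, 1.07 and 1.37 FPKM and KD libraries had 4.41, 2.06, 6.27 and 2.19 FPKM. Morula control 1 was well above the other morulae, and in blastocysts all 4 KD libraries were above all control libraries, most of all libraries 1 and 5. Of all 11828 genes tested in blastocysts, 4082 had groups that did not overlap. Dusp4 rose by 1.06 in KD blastocysts (SE 0.25, adjusted p = 0.00608), past both thresholds of a DEG (adjusted p below 0.05, more than 1 log2 unit in size). The exact permutation test gave p = 0.0286, or 0.286 adjusted over 30 tests. Dusp4 was past the test under all 15 alternatives that kept it, with log2 fold changes from 0.86 to 1.51 and adjusted p from 0.00345 to 0.0461. The value without Blastocyst KD 5 was 0.86 (adjusted p = 0.0165). From morula to blastocyst, Dusp4 rose by 1.38 in KD embryos (SE 0.27, adjusted p = 0.00201; 1.18 without Blastocyst KD 5 and 2.19 with a pseudocount of 0.1) and changed by 0.14 in control embryos (SE 0.26, adjusted p = 0.656; 0.42 without Morula control 1, adjusted p = 0.0529). The difference between these steps, which is also the KD effect in blastocysts minus that in morulae, was 1.22 (SE 0.40, adjusted p = 0.0573). It was 0.75 with Morula control 1 and Blastocyst KD 5 both left out (adjusted p = 0.134). It was past the test without Morula control 7 (1.40, adjusted p = 0.0331), without Blastocyst KD 4 (1.38, adjusted p = 0.0336), without Blastocyst KD 6 (1.38, adjusted p = 0.0395) and with the replicate number as a block (1.70, adjusted p = 0.0346).

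Dusp6 (ENSMUSG00000019960.8, chr10:99263231-99267489, forward strand) encodes a cytoplasmic phosphatase of ERK that is widely used as a readout of FGF signalling. In 2-cell embryos, Dusp6 was at 0.943, 1.63, 2.56 and 0.673 FPKM in control libraries 1, 2, 4 and 5 and at 1.24, 0.935 and 0.877 FPKM in KD libraries 1, 2 and 4. In morulae, it was at 2.88, 1.78, 1.67 and 1.77 FPKM in control libraries 1, 2, 7 and 8 and at 3.91, 3.42 and 3.59 FPKM in KD libraries 1, 2 and 6. In blastocysts, control libraries 1, 4, 5 and 6 had 6.65, 9.59, 11.6 and 6.34 FPKM and KD libraries had 4.54, 3.65, 7.85 and 4.96 FPKM. All KD morulae were thus above all control morulae, while in blastocysts 3 of 4 KD libraries were below all control libraries and library 5 was not. Of all 10989 genes tested in morulae, 3249 had groups that did not overlap. At the 2-cell stage the groups overlapped, with a log2 fold change of -0.18 (SE 0.26, adjusted p = 0.914).

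Dusp6 rose by 0.73 in KD morulae (SE 0.16, adjusted p = 0.0159; exact permutation p = 0.0571, adjusted over 30 tests 0.286). Without Morula control 1 the value was 0.80 (adjusted p = 0.00947), and adjusted p passed 0.05 without Morula KD 1 (0.0585), without Morula KD 2 (0.0513), without the filter (0.0503) and with a replicate block (0.0982). In KD blastocysts Dusp6 fell by 0.61 (SE 0.21, adjusted p = 0.0399; exact permutation p = 0.0857, adjusted over 30 tests 0.286). That call was lost on FPKM as deposited (adjusted p = 0.0705) and without the filter (adjusted p = 0.108). It was also lost without Blastocyst control 4 or 5 (adjusted p = 0.0985 and 0.103) and without Blastocyst KD 1, 4 or 6 (adjusted p = 0.0789, 0.101 and 0.0854), while the log2 fold change stayed between -0.74, without Blastocyst KD 5, and -0.50. Between the morula and the blastocyst stage, Dusp6 rose by 1.57 in control embryos (SE 0.19, adjusted p = 2.70e-05) and changed by 0.23 in KD embryos (SE 0.20, adjusted p = 0.410; from 0.093 to 0.34 with single libraries left out). The difference of these steps, equal to the KD effect in blastocysts minus that in morulae, was -1.38 (SE 0.27, 95% interval -1.95 to -0.81, adjusted p = 0.00374). It was past the test under all 23 alternatives, from -1.70 to -1.25 with adjusted p from 0.00176 to 0.0323, and was -1.59 (adjusted p = 0.00203) without both Morula control 1 and Blastocyst KD 5. Between control 2-cell embryos and morulae Dusp6 changed by 0.34 (SE 0.21, adjusted p = 0.149). It passed the test with upper quartile scaling (0.54, adjusted p = 0.0284) and without 2-cell control 4 (0.50, adjusted p = 0.0302), and was 0.16 without 2-cell control 5 (adjusted p = 0.456).

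**Figure D2:**
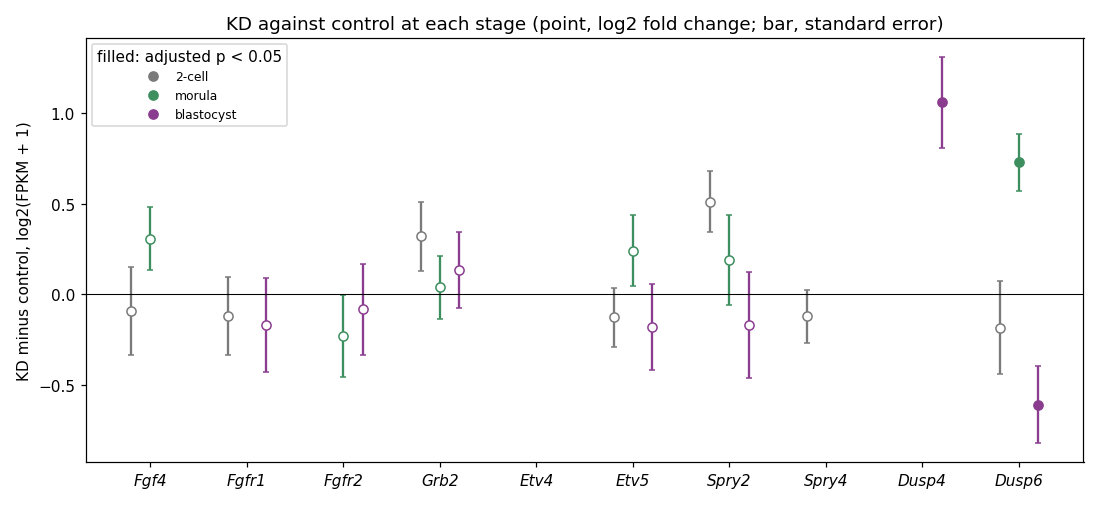
Log2 fold change of KD against control embryos on log2(FPKM + 1) (y axis) for each gene (x axis) in 2-cell embryos (grey), morulae (green) and blastocysts (purple); bars are standard errors of the limma fit, filled points have an adjusted p under 0.05, and a gene below the filter at a stage has no point. Dusp6 lies above 0 in morulae and below 0 in blastocysts, and Dusp4 lies at 1.06 in blastocysts.

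Over the list of 10, 7 genes passed the filter at the 2-cell stage, where 0 rose and 0 fell with KD by limma, against 0% higher and 0% lower of 12160 genes tested; at an unadjusted p under 0.05 there were 1 of these 7 (Spry2) and 701 of all genes. In morulae 6 were tested and 1 rose (Dusp6), where 4.22% of 10989 genes rose and 9.05% fell. In blastocysts 7 were tested, 1 rose (Dusp4) and 1 fell (Dusp6), where 16.7% of 11828 genes rose and 19.8% fell. Control and KD libraries did not overlap as deposited for 1 of 7 tested members (Spry2) in 2-cell embryos, against 824 of 12160 genes. In morulae it was 1 of 6 (Dusp6) against 3249 of 10989, and in blastocysts 1 of 7 (Dusp4) against 4082 of 11828. The median log2 fold change of the tested members and of all genes was -0.12 and 0.0036 in 2-cell embryos, 0.21 and 0.015 in morulae and -0.17 and 0.0047 in blastocysts. From control 2-cell embryos to morulae 8 were tested, 1 rose (Fgfr2) and 3 fell (Fgf4, Etv5 and Spry4), where 43% of 13655 genes rose and 40.3% fell. From control morulae to blastocysts 1 of 7 rose (Dusp6) and 1 fell (Grb2), where 27.6% of 11849 genes rose and 28.8% fell. In KD embryos over the same step 1 of 7 rose (Dusp4), where 19.2% of 11370 genes rose and 18.2% fell. The KD effect was lower in blastocysts than in morulae for 1 of 8 (Dusp6), where it was higher for 5.43% and lower for 6.3% of 12727 genes. Comparisons at one stage share their control libraries with the developmental steps, so these counts are not independent of each other. A gene with no library at 1 FPKM or more in a group enters through the other group, and only 1 direction could be called for it; this holds for Fgfr2 and Spry4 in the first of these steps and for Dusp4 in the KD step, and for 4041 of all 13655 and 874 of all 11370 genes. Of all genes past the test in KD morulae 31.8% were higher, 15.3% on FPKM as deposited and 41.7% with upper quartile scaling, so the balance between directions at that stage depends on the scaling.

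Beyond the 10 genes, 6 lists of other pathway genes held 97 symbols, of which 96 were in the table. In KD 2-cell embryos 48 were tested and limma called 0 in either direction, with 4 at an unadjusted p under 0.05. In KD morulae 39 were tested, 3 rose and 2 fell, 12.8% in all, where 4.22% of all genes rose and 9.05% fell. On FPKM as deposited 1 rose, and 1 rose and 1 fell without the filter or with a filter of 5 FPKM. With single libraries left out 1 to 3 rose. Sdc4, a heparan sulphate co-receptor gene, was at 98.1, 99.1, 127 and 114 FPKM in control libraries 1, 2, 7 and 8 and at 203, 197 and 181 FPKM in KD libraries 1, 2 and 6 (log2 fold change 0.95, SE 0.16, adjusted p = 0.00661). The RAS gene Nras was at 22.2, 27.0, 31.1 and 27.9 FPKM in the same control libraries and at 10.4, 10.3 and 12.9 FPKM in the KD libraries (-1.08, SE 0.19, adjusted p = 0.00793). All KD libraries lay above the control libraries for Sdc4 and below them for Nras. The groups did not overlap, in either direction, for 3249 of all 10989 genes tested in morulae. Klb, the beta-klotho co-receptor gene, fell by 1.26 (SE 0.20, adjusted p = 0.00488), and Ccnd1, the cyclin D1 gene, rose by 0.58 (SE 0.16, adjusted p = 0.0393). Sdc1 was the other gene that rose, and is named after its values were seen (0.63, SE 0.17, adjusted p = 0.0366). Called genes were 2 higher and 1 lower of 6 in the list of receptors and heparan sulphate co-receptors, 0 of 10 adaptors and RAS regulators, 1 lower of 11 in the RAS-RAF-MEK-ERK core, 0 of 4 other feedback inhibitors and 1 higher of 8 other ERK response genes, and 0 of 21 other FGF ligands passed the filter.

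In KD blastocysts 39 pathway genes were tested, 7 rose and 6 fell, 33.3% in all, where 16.7% of all genes rose and 19.8% fell, with a median log2 fold change of 0.30 against 0.0047 over all genes. Without the filter 3 fell, and 3 to 6 fell with single libraries left out. With a filter of 5 FPKM 4 rose, and 11 rose with the replicate number as a block. Among the other feedback inhibitors 2 of 4 rose. Dusp1, an immediate early gene for a MAP kinase phosphatase, was at 1.79, 3.11, 3.61 and 3.15 FPKM in control libraries 1, 4, 5 and 6 and at 11.8, 5.28, 8.34 and 10.5 FPKM in KD libraries (log2 fold change 1.34, SE 0.24, adjusted p = 0.00110). Dusp10, whose phosphatase acts mainly on JNK and p38, was at 2.76, 4.66, 6.05 and 5.36 FPKM in control and 7.38, 7.62, 10.6 and 7.85 FPKM in KD libraries (0.75, SE 0.19, adjusted p = 0.00835). Both had all KD libraries above all control libraries, as Dusp4 did and Dusp6 did not. The groups did not overlap, in either direction, for 4082 of all 11828 genes tested in blastocysts. Of 7 other ERK response genes 2 rose and 0 fell: Fos (1.09, SE 0.20, adjusted p = 0.00137) and Ier2, which is named after its values were seen (1.16, SE 0.27, adjusted p = 0.00524). In the RAS-RAF-MEK-ERK core 1 of 11 rose, the MEK2 gene Map2k2 (1.42, SE 0.29, adjusted p = 0.00242), and 3 fell, Lamtor3 (-0.62, SE 0.17, adjusted p = 0.0136), Araf (-0.61, SE 0.19, adjusted p = 0.0256) and Nras (-0.56, SE 0.20, adjusted p = 0.0438). Of 10 adaptors and RAS regulators 1 rose, the exchange factor gene Sos1 (0.57, SE 0.20, adjusted p = 0.0366), and 1 fell, Crk, which is named after its values were seen. Among 6 receptors and co-receptors Sdc1 rose (1.43, SE 0.18, adjusted p = 0.000125) and Ext2, an enzyme gene of heparan sulphate synthesis, fell (-0.76, SE 0.16, adjusted p = 0.00373). The only other FGF ligand gene past the filter, Fgf10, was at 1.49, 3.00, 1.93 and 1.38 FPKM in control libraries 1, 4, 5 and 6 and at 0.436, 0.224, 0.234 and 0.00955 FPKM in KD libraries. It was lower in all KD libraries (-1.24, SE 0.19, adjusted p = 0.000429). Among the blastocysts, Fgf10 and Ext2 reached 1 FPKM in control libraries alone and Sdc1 in KD libraries alone, so only the direction given could be called for them. Without these 3, 6 of 36 pathway genes rose and 4 fell, where 15.0% of 11123 genes that reached 1 FPKM in both groups rose and 18.3% fell.

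During normal development the pathway genes moved in both directions. From control 2-cell embryos to morulae 50 were tested, 11 rose and 26 fell, 74% in all, where 43% of all genes rose and 40.3% fell, with a median log2 fold change of -0.66 against 0.097 over all genes. Of the 50, 14 reached 1 FPKM at only 1 of the stages, which fixes the direction that could be called. Among the other 36, 8 rose and 15 fell, where 45.6% of 9614 such genes rose and 30.9% fell. Of the other feedback inhibitors Dusp5, Dusp7, Dusp16, Il17rd, Spred1 and Spry1 reached 1 FPKM in the 2-cell but in none of the morula control libraries; of the 3 that reached it at both stages Dusp14 fell and Dusp1 rose. These genes are named after their values were seen. From control morulae to blastocysts 38 were tested, 11 rose and 13 fell, where 27.6% of all genes rose and 28.8% fell. Of the 38, 2 reached 1 FPKM at only 1 stage, which fixes the direction that could be called. Among the other 36, 10 rose and 12 fell, where 24.1% of 10574 such genes rose and 27.6% fell. In KD embryos over the same step 40 were tested, 7 rose and 8 fell, where 19.2% of all genes rose and 18.2% fell. Among the 39 that reached 1 FPKM at both stages, 7 rose and 7 fell, where 15.3% of 10496 such genes rose and 18.6% fell. The KD effect differed between blastocysts and morulae for 7 of 42 pathway genes, where it was higher for 5.43% and lower for 6.3% of all genes. It was higher in blastocysts for Dusp1, Dusp10, Fos and Ier2 and lower for Crk, Fgf10 and Sdc4, also named after their values were seen. Among morulae and blastocysts Fgf10 reached 1 FPKM in control blastocysts alone, so only this direction could be called for it.

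Markers of the lineages in which these genes act were followed in KD blastocysts, where 16.7% of all genes rose and 19.8% fell. Summed over 12 trophectoderm markers, control libraries 1, 4, 5 and 6 had 1851, 2334, 1992 and 1635 FPKM and KD libraries had 867, 1111, 1029 and 919 FPKM. Krt18 was the most abundant of them, except in Blastocyst control 1, where it was Id2. All KD sums were lower; of 11 markers tested 4 fell (Elf5, Gata2, Id2 and Krt18) and 3 rose (Hand1, Krt7 and Tfap2c). Among the blastocysts Elf5 and Gata2 reached 1 FPKM in control libraries alone and Hand1 in KD libraries alone, which fixes their direction; of the other 8, 2 fell and 2 rose. The defining gene Cdx2 was detected in every blastocyst library. The 12 markers of epiblast or inner cell mass summed to 8864, 7314, 6295 and 6519 FPKM in control and 4577, 5241, 3458 and 4016 FPKM in KD libraries, mostly from Dppa5a. Of 11 tested, 5 fell (Bmp4, Dppa5a, Gdf3, Prdm14 and Tdgf1) and 1 rose (Utf1), of which Bmp4 and Prdm14 reached 1 FPKM in control libraries alone and could only be called lower; of the other 9, 3 fell and 1 rose. Nanog was at 100, 121, 195 and 112 FPKM in control and 118, 134, 226 and 166 FPKM in KD libraries. The sums overlapped for the 12 primitive endoderm markers, with 112, 143, 180 and 137 FPKM in control and 167, 136, 186 and 168 FPKM in KD libraries, but these sums are mostly Dab2 and say little of the other markers. On this list 3 were tested and limma called 0, with 0 at an unadjusted p under 0.05. The most abundant after Dab2, Gata6, was at 8.25, 7.32, 7.46 and 19.4 FPKM in control and 12.0, 9.45, 35.7 and 19.0 FPKM in KD libraries. Below the filter, the means of Gata4 and Foxq1 were higher in KD libraries, and those of Lama1, Serpinh1, Pdgfra, Sox17, Sox7, Cubn and Rspo3 were lower. Lama1 was at 0.146 to 0.479 FPKM in control and 0.0227 to 0.0504 FPKM in KD libraries. Serpinh1 was at 0.237 to 0.498 and 0 to 0.0882 FPKM, and both were lower in all KD libraries. Control and KD libraries overlapped for Pdgfra, at 0.714 to 2.93 and 0.213 to 0.903 FPKM, and for Sox17, Sox7, Cubn and Rspo3. These markers are named after their values were seen. Sox17 was at most 1.07 FPKM in all blastocyst libraries and Sox7 was listed at 0 in KD libraries 4 and 6. Markers of cumulus or granulosa cells, 10 in all, summed to 6.09, 5.25, 8.69 and 7.25 FPKM in control and 15.7, 11.2, 10.8 and 13.8 FPKM in KD libraries, the most abundant being Amhr2 and Hsd17b1, respectively. Of these, 2 were tested and 1 rose (Hsd17b1), and the defining genes Fshr and Ptx3 were listed at 0 in all blastocyst libraries.

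In KD morulae 4.22% of all genes rose, Dusp6 among them, and 9.05% fell. There 1 of 8 tested markers of epiblast or inner cell mass rose (Klf2) and 2 fell (Gdf3 and Nanog). Nanog was at 62.9, 103, 113 and 143 FPKM in control libraries 1, 2, 7 and 8 and at 17.9, 11.6 and 32.6 FPKM in KD libraries 1, 2 and 6, so that all KD libraries were lower. The list summed to 3378, 4465, 4561 and 4704 FPKM in control and 4219, 4753 and 4915 FPKM in KD morulae, mostly from Dppa5a. Trophectoderm markers summed to 154, 142, 154 and 170 FPKM in control and 142, 118 and 175 FPKM in KD morulae, with Krt18 the most abundant, and 1 of 7 rose (Hand1). Primitive endoderm markers summed to 155, 134, 109.8 and 122 FPKM in control and 114, 120.3 and 132 FPKM in KD morulae, mostly from Dab2, and cumulus or granulosa markers to 12.1, 9.81, 12.7 and 9.72 FPKM in control and 10.1, 8.60 and 11.2 FPKM in KD morulae. The sums of all 4 lists overlapped between groups. The part of these marker changes in the levels of the 10 genes was not tested.

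Genes with the most similar course over the 22 libraries were sought for the 9 members with a mean of at least 1 FPKM in a group, by Pearson correlation of log2(FPKM + 1), as a description. The points share library and depth. With the mean of each stage subtracted, r of these pairs lay between 0.507 and 0.857. Fgf4 was nearest to the oocyte genes Gdf9 and Oas1d and to Musk (r = 0.993 for each), and Spry4 to Trim75, Wee2 and Obox3-ps1 (r = 0.999 for each). Gdf9 had group means of 36.1 and 26.7 FPKM in control and KD 2-cell embryos and 0.422 and 0.809 FPKM in morulae. Dusp6 was nearest to Clic1 (r = 0.926), Ube2l6 (r = 0.924) and Iqgap1 (r = 0.923). Clic1 had means of 1.43 and 3.42 FPKM in control and KD morulae and 29.9 and 11.9 FPKM in control and KD blastocysts. This is the order that Dusp6 had at these stages, a likeness that follows in part from its choice by correlation. With stage means subtracted, r of Dusp6 and Clic1 was 0.638. Dusp4 was nearest to Tex19.2 (r = 0.937), with means of 3.56 and 17.6 FPKM in control and KD blastocysts, then to Slc38a7 (r = 0.903) and Ubl3 (r = 0.897). Etv5 was nearest to Hic2 (r = 0.932), Mapk14 (r = 0.931) and Yap1 (r = 0.929). Lower values were found for Spry2 with Ube2v2 (r = 0.853), Actr2 (r = 0.779) and Ss18l2 (r = 0.777), for Fgfr1 with Slc16a1 (r = 0.834), Rnf187 (r = 0.780) and Glyr1 (r = 0.763), and for Grb2 with Zfp445 (r = 0.815), Ppp2r5e (r = 0.800) and Ctcf (r = 0.799).

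A RefSeq promoter table of GRCm38.p6 held 8 promoters of 6 of the 10 genes. The 250 bases before the start were searched on both strands for 6 motifs: CGGAAG of ETS factors, TGACTCA of AP-1, TGACGTCA of the cyclic AMP response element, CCAAT of the CCAAT box, GGGCGG of the GC box and TATAAA of the TATA box. Among 32851 promoters of this length the motifs were found in 13.6%, 4.46%, 1.55%, 33.8%, 32.7% and 12.4%, respectively, with a median GC content of 52.4% and a median of 6 CpG. Dusp6, whose response to KD differed between stages, held 1 ETS and 1 CCAAT motif in 250 bases with 56.4% GC and 16 CpG. Of the 8 promoters it alone held an ETS motif, against 13.6% of all promoters. A link between this motif and the response to KD was not tested. Fgf4, which fell after the 2-cell stage, held 1 CCAAT motif and 2 GC boxes, with 71.2% GC and 21 CpG; its RefSeq start lies inside the gene model given for it above. Spry2, the most abundant gene, held none of the 6 motifs, with 62.4% GC and 23 CpG. None of the 3 windows overlaps an annotated exon. A match is a description of the letters and not a bound site. The windows of these 3 genes are printed 5′ to 3′ on the strand of the gene, with the motifs, read on either strand, in capitals.
Dusp6, chr10:99262981-99263230, forward strand: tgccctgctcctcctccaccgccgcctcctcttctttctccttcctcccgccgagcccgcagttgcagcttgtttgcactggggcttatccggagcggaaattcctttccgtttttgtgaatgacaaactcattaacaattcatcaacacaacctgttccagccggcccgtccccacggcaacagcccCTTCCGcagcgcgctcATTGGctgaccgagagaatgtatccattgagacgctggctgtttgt
Fgf4, chr7:144861136-144861385, forward strand: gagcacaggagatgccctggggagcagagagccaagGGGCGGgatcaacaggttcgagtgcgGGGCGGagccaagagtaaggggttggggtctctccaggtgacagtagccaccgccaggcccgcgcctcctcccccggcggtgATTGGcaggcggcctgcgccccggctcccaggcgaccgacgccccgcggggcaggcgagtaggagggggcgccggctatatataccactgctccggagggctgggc
Spry2, chr14:105896820-105897069, reverse strand: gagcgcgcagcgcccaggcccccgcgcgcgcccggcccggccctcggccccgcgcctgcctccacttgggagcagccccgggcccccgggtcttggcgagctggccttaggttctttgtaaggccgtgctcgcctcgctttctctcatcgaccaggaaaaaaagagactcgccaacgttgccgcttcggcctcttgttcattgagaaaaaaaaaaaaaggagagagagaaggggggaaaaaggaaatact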

How the data were processed

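RNA-seq libraries from H2A.Z KD and control embryos of 3 stages were analysed from the deposited table of FPKM per gene, in which each of the 22 value columns was matched to a library by its title. FPKM had been computed by the authors with StringTie 2.1.4 after alignment with STAR 2.7.3a against mm10; their read counts, used with featureCounts 1.6.2 and DESeq2 1.30.1, were not used here. Groups and replicate numbers came from the sample titles. Within each comparison, FPKM were divided by a median-of-ratios factor per library, a pseudocount of 1 was added and log2 was taken. The factors ranged from 0.943 to 1.09 at the 2-cell stage, from 0.912 to 1.17 in morulae and from 0.893 to 1.12 in blastocysts. Genes with at least 1 FPKM in at least 3 libraries of the comparison were fitted with limma 3.58.1 in R 4.3.3 by lmFit and trended eBayes, and no covariate was used. Adjustment of p-values over all genes tested followed Benjamini and Hochberg, a gene was called when its adjusted p was below 0.05, and DEGs also changed by more than 1 log2 unit. There were 7 comparisons: KD against control at each stage, the steps from 2-cell to morula and from morula to blastocyst in control embryos, the latter step in KD embryos, and the interaction of stage and KD over morulae and blastocysts. Each of the 10 genes was also tested at each stage with a 2-sided exact permutation test of mean log2(FPKM + 1) on FPKM as deposited, 30 tests in all, for which 4 against 3 or 4 against 4 libraries cannot give a p below 0.0286. The steps were tested on simulated data. The planted changes were larger than the KD effects called for the 10 genes, in genes at 5 FPKM or more in every library. This does not show the power for genes as low as most of the 10.

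The 10 genes, H2afz and H2afv were always named. From each of 6 pathway lists, up to 3 genes per direction with the largest called change among those whose control and KD libraries do not overlap were named in the KD comparisons; other named genes are marked as named after their values were seen, except the lineage markers, which were listed with their genes. The nearest genes were sought among genes with a mean of at least 5 FPKM in a group, leaving out Gm and Rik genes; those of Fgfr2 are not reported here. Members and lists were chosen with earlier results of these data known. Positions came from GENCODE annotation of GRCm38, which matched all 10 identifiers with their version. The alternatives were a pseudocount of 0.1, no filter, a filter of 5 FPKM, FPKM as deposited, upper quartile scaling, eBayes without a trend, leaving out each library, the replicate number as a block, a batch made from ranges of replicate numbers and, chosen after seeing the data, leaving out 2 libraries together. Depth in reads is unknown, and errors given here reflect library to library spread.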

Additional observations from a re-analysis of the deposited data

Results flagged for a closer look

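In groups of 4 libraries, the gap between the highest or lowest library and its nearest neighbour was divided by the range of the group, and 7 of 40 combinations of gene and group exceeded Dixon's critical value for 4 libraries. Chance gives about 1 in 20 such combinations, and the genes share libraries. Of the 7, 2 involve Morula control 1, the highest of its group for Etv5 (3.30 FPKM, gap over range 0.899) and for Dusp6 (2.88 FPKM, gap over range 0.911). Blastocyst control 1 was the lowest of its group for Fgfr1 (0.475 FPKM, gap over range 0.836) and for Grb2 (2.35 FPKM, gap over range 0.860). The others were 2-cell control libraries. Library 5 was the highest for Fgfr2 (0.967 FPKM, gap over range 0.931), library 2 for Grb2 (5.62 FPKM, gap over range 0.930) and library 1 for Etv4 (0.0417 FPKM, gap over range 1, with the other libraries listed at 0). The effect of KD on Dusp6 differed between stages, with an interaction of -1.38 on the log2 scale (adjusted p = 0.00374 by limma); it was higher in 3 of 3 KD morulae than in all control morulae and lower in 3 of 4 KD blastocysts than in all control blastocysts. The causes of these differences were not tested.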

How the results depend on the processing

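For 9 of the 10 genes, in the comparisons where they passed the filter, 763 fits were made under the alternatives. The call and the direction held in 694, 32 fits of uncalled genes had another sign, 19 lost the call, 18 gained one, and 0 called values reversed. A pseudocount of 0.1 changed the log2 fold changes of low genes (Fgfr2 from control 2-cell embryos to morulae from 1.60 to 2.48, Dusp4 from KD morulae to KD blastocysts from 1.38 to 2.19) and no count of called members or pathway genes. Without the filter on FPKM, 0 members rose in KD morulae instead of 1, with 1 pathway gene higher instead of 3 and 1 lower instead of 2; in KD blastocysts 0 members fell instead of 1 and 3 pathway genes fell instead of 6; and from KD morulae to KD blastocysts 1 member fell (Fgf4, -0.56, adjusted p = 0.0308) instead of 0. A filter of 5 FPKM leaves fewer genes. In KD morulae it gave 0 members and 1 pathway gene higher and 1 pathway gene lower, and in KD blastocysts 0 members higher and 4 pathway genes higher instead of 7. With it, 0 members rose from control 2-cell embryos to morulae, 0 fell from control morulae to blastocysts and 0 rose from KD morulae to KD blastocysts, each instead of 1. On FPKM as deposited, 1 pathway gene was higher in KD morulae, 0 members fell in KD blastocysts, 2 members rose from control 2-cell embryos to morulae and 0 fell from control morulae to blastocysts. With upper quartile scaling 3 members rose from control 2-cell embryos to morulae. With the replicate number as a block, 0 members rose in KD morulae, 11 pathway genes rose in KD blastocysts, and the KD effect was higher in blastocysts than in morulae for 1 member (Dusp4) instead of 0. With Morula control 1 and Blastocyst KD 5 left out, which was chosen after seeing the data, the KD effect was lower in blastocysts for 3 members (Dusp6, Fgf4 and Etv5) instead of 1. With Morula control 1 out, Fgf4 reached 1 FPKM in KD morulae and control blastocysts alone, so only this direction could be called for it. The cause of these differences was not tested.

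When single libraries were left out, counts ranged as follows. In KD morulae 0 to 1 members and 1 to 3 pathway genes rose. In KD blastocysts 0 to 1 members and 3 to 6 pathway genes fell. From control 2-cell embryos to morulae 1 to 2 members rose. From control morulae to blastocysts 1 to 3 members rose and 0 to 1 fell, and from KD morulae to KD blastocysts 1 to 2 rose and 0 to 1 fell. The KD effect was higher in blastocysts for 0 to 1 members and lower for 1 to 2.

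Scaling moved the median of all genes from -0.029 to 0.13 between KD morulae and KD blastocysts, and from -0.0085 to 0.11 for the interaction, on FPKM as deposited. The share of called genes that rose in that KD step was 51.3%, 67.4% as deposited and 43% with upper quartile scaling. At each stage some replicate numbers occur in both groups; residuals of same-numbered libraries had r from 0.0166 to 0.215 in 2-cell embryos, 0.0932 to 0.171 in morulae and -0.101 to 0.346 in blastocysts. In morulae, residuals went with ranges of numbers: r was 0.0932 to 0.171 between control 1 or 2 and KD 1 or 2, 0.185 and 0.341 between control 7 or 8 and KD 6, and -0.266 to -0.0923 across. With these ranges as a batch, Dusp6 changed by 0.72 in KD morulae (adjusted p = 0.0139) and by -0.61 in KD blastocysts (adjusted p = 0.0418), Dusp4 by 1.06 in KD blastocysts (adjusted p = 0.00718), and 8 pathway genes rose there instead of 7. The blocked fits kept 1016 of 1459 KD calls in morulae, 4183 of 4321 in blastocysts, 2075 of 4259 from KD morulae to KD blastocysts, 844 of 1493 of the interaction and 10421 of 11374 from control 2-cell embryos to morulae. Residual degrees of freedom in these fits were 1, 3, 1, 4 and 1, in this order. A library whose number is in 1 group alone adds nothing to a blocked difference, so the block and the number of libraries used changed together. Control morulae and blastocysts share 1 number, so no block was fitted there.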
